A study of Mus musculus with 12 samples.

Results

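Of the 12 sequenced cultures of the series, 6 enter the comparison described here: 3 that received antibodies against PD-1 and CD8 together (aPD-1+CD8) and 3 that received a control antibody (IgG). The members were taken from the treatment in each sample's labels, and the comparison is 1 of 5 tables of the authors' own tests. The cultures were grown from MC38 tumours, a mouse colon carcinoma line, in C57BL/6 albino mice. Dissociated tumour pieces of 40 to 100 µm were held in collagen at 2.8 mg/mL inside microfluidic chips and treated for 6 days in 300 µL per well. The IgG group had clone 2A3 at 10 µg/mL. The aPD-1+CD8 group had clone RMP1-14 against PD-1 at 10 µg/mL and clone 53-6.7 against CD8 at 10 µg/mL, so it held more total antibody than the IgG group, and no isotype control for the CD8 clone is named. A further 3 cultures with clone RMP1-14 alone at 10 µg/mL (aPD-1) are used below only as a reference. For a few small RNAs the 3 cultures with interferon-gamma at 100 ng/mL (IFNg) are given too. Whether clone 53-6.7 depleted cells or only covered CD8 is not in the labels. RNA was lysed from the whole device. Nothing states that replicates are different mice or separate cultures, so each p-value reflects the spread among these libraries alone, which could be technical.

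PD-1 is an inhibitory receptor on activated T cells, and antibodies against it release those cells from inhibition by its ligands on tumour and myeloid cells. CD8 is the co-receptor of cytotoxic T cells, which recognise peptides on MHC class I and kill or signal to their targets through perforin, granzymes and secreted cytokines. Adding a CD8 antibody to PD-1 blockade asks which part of the response depends on CD8-bearing cells, and comparing that double treatment with IgG asks what is left of it.

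The deposited tables give no values of single libraries, but the reads of each library could be solved from the means they print. The 6 libraries held 7805958 to 14527764 reads counted in genes, and the ribosomal RNA precursor Rn45s took 23.3% to 37.2% of them. Values below are normalised read counts, meaning a library's reads divided by its size factor, computed over all 12 libraries. Library numbers are names only and cannot be tied to individual samples in the labels. The aPD-1+CD8 libraries 2 and 3 stood apart from each other. They differed by 2-fold or more in 829 of 9101 genes with a mean of at least 20 (9.11%), against 0.857% to 1.48% between pairs of IgG libraries and 2.21% to 3.61% between pairs of aPD-1 libraries. Any aPD-1+CD8 library differed by that much from any IgG library in 1.09% to 4.04% of genes. Libraries 2 and 3 were therefore farther from each other than either was from any IgG library. Rn45s took 37.2% of reads in library 2 and 23.3% in library 3.

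**Figure D1:**
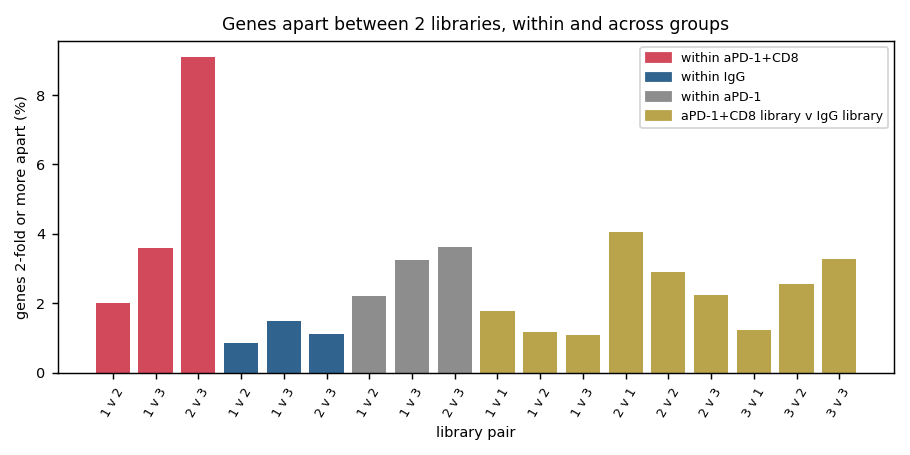
Each bar is the percentage of 9101 genes whose normalised counts differ by 2-fold or more (on log2 of the count plus 1) between the 2 libraries named under it; colours mark pairs within a group and pairs of an aPD-1+CD8 with an IgG library. The pair of aPD-1+CD8 libraries 2 and 3 reaches 9.11%, and the 3 IgG pairs lie between 0.857% and 1.48%.

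No gene passed the authors' test. In the authors' deposited table for aPD-1+CD8 v IgG, 0 of 15304 genes tested with DESeq2 (0%) had an adjusted p under 0.05. At an unadjusted p under 0.05 the authors' deposited table held 57 genes (0.372%), of which 21 (0.137%) were higher and 36 (0.235%) lower with aPD-1+CD8. A second test, limma voom on the read counts of each library recovered from the deposited means, called 0 of 10105 genes (0%) and had 129 with an unadjusted p under 0.05. In the authors' deposited table for aPD-1 v IgG, which shares the 3 IgG libraries, 2229 of 12024 genes (18.5%) passed, 1022 (8.5%) higher and 1207 (10%) lower. The authors' deposited table for aPD-1+CD8 v aPD-1, the direct comparison of the 2 antibody treatments, held 1706 passing genes of 11560 (14.8%), with 904 (7.82%) higher and 802 (6.94%) lower in aPD-1+CD8.

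The spread sets how small a difference could be seen. The 95% interval of the log2 difference by limma voom had a median half-width of 0.42, with 0.64 for 4150 genes with mean counts from 10 to 100 and 0.29 for 1638 genes at 1000 or more. For 8752 of the 10105 genes (86.6%) the interval lay wholly between -1 and 1, so a change of 2-fold or more lay outside it. Over 9913 genes with a mean of at least 10 in both groups, the median size of the log2 ratio of group means was 0.099, and 9 genes (0.0908%) reached 1. The same ratio for aPD-1 over IgG had a median size of 0.28 over 9816 genes, and 686 (6.99%) reached 1. The deposited log2 fold changes of aPD-1+CD8 v IgG ran only from -0.35 to 0.31 in the authors' deposited table and were closer to 0 than these ratios, with a median size of 0.042 over the same 9913 genes.

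The 5 genes with the smallest p among those lower with aPD-1+CD8 were Sulf2, Mmp2, Esyt3, Ackr3 and Chst3. Genes here and in the next paragraph were picked for small p in these same libraries. Their separation, intervals and leave-out ranges therefore describe them and add no separate evidence. Sulf2, an enzyme that removes sulphate from heparan sulphate chains outside the cell, measured 125, 166 and 90.2 in the aPD-1+CD8 libraries and 195, 191 and 296 in the IgG libraries. All 3 aPD-1+CD8 libraries were below all 3 IgG libraries, with a log2 difference of -0.81 (95% interval -1.31 to -0.31 by limma voom) that ran from -1.02 to -0.60 when 1 library was left out. In the authors' deposited table its log2 fold change was -0.35 ± 0.11 (SE), with an unadjusted p of 0.00117 and an adjusted p of 0.9998 by DESeq2. Mmp2, a secreted gelatinase that degrades matrix, stood at 309, 230 and 419 against 462, 433 and 548. The groups did not overlap, and the log2 difference was -0.63 (-1.04 to -0.21 by limma voom), or -0.83 to -0.41 when 1 library was left out. In PD-1 blockade alone Mmp2 was at 12957, 13662 and 7096, far above both groups. Ackr3, a scavenging receptor for chemokines, was at 16.6, 13.7 and 55.7 with aPD-1+CD8 and at 49.6, 55.1 and 95.8 with IgG. Library 3 of aPD-1+CD8 lay among the IgG libraries for this gene, and the log2 difference of -1.42 (-2.33 to -0.51 by limma voom) moved between -1.98 and -1.08 when 1 library was left out. Chst3, which sulphates chondroitin, measured 21.8, 23.9 and 55.7 against 74.0, 66.0 and 54.5, so library 3 again fell in the IgG range. Esyt3, a tether between the endoplasmic reticulum and the plasma membrane, was close to 0 with 0, 2.28 and 1.33 against 14.0, 11.7 and 7.27.

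Among genes higher with aPD-1+CD8 the 5 smallest p belonged to Snord16a, Snord15b, Tenm4, Dlg2 and Shc4. Tenm4, a teneurin that joins neighbouring cells, measured 1237, 1426 and 1348 with aPD-1+CD8 and 879, 1138 and 1052 with IgG. All 3 treated libraries were above all 3 controls, by a log2 difference of 0.39 (0.10 to 0.69 by limma voom). Dlg2, a membrane scaffold protein, was at 133, 83.2 and 125 against 83.1, 59.3 and 70.3, and its lowest treated library barely cleared the highest control. Shc4, an adaptor of receptor tyrosine kinases, had 42.6, 26.2 and 34.5 against 15.4, 14.2 and 19.4, without overlap, and a log2 difference of 1.08 (0.40 to 1.77 by limma voom). None of these 10 genes passed the adjusted test in the comparison with IgG. In PD-1 blockade alone, by the authors' deposited table for aPD-1 v IgG, Tenm4 fell by 1.78 on the log2 scale (adjusted p = 9.32e-15 by DESeq2), Dlg2 fell by 1.03 (adjusted p = 0.00192) and Sulf2 fell by 1.33 (adjusted p = 3.73e-07).

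**Figure D2:**
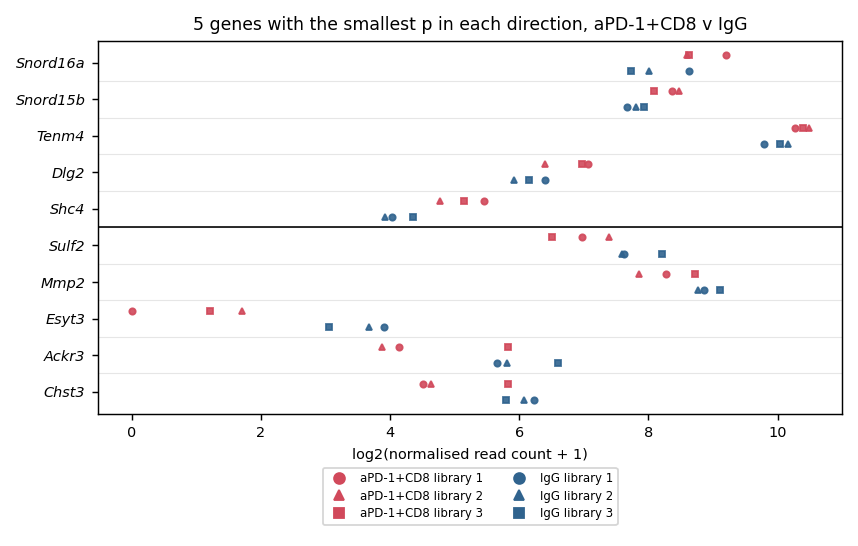
Each point is 1 library's log2(normalised read count + 1), in red for aPD-1+CD8 and blue for IgG, for the 5 genes with the smallest p that were higher (above the line) and lower (below it) with aPD-1+CD8. Tenm4, Dlg2, Snord15b, Shc4, Sulf2, Mmp2 and Esyt3 show no overlap between groups, Dlg2 by 83.2 against 83.1, while library 3 (squares) of aPD-1+CD8 lies among the IgG points for Ackr3 and Chst3.

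Of the 10083 genes with a mean of at least 10 over the 6 libraries, 256 (2.54%) had all 3 aPD-1+CD8 libraries above all 3 IgG libraries and 219 (2.17%) had them all below. Together that is 475 genes (4.71%). Among so few libraries some genes separate fully without any difference between groups, so these counts are no sign of a shift by themselves. Without aPD-1+CD8 library 3, 790 of 10192 genes had an unadjusted p under 0.05 by limma voom. All 6 libraries gave 129 of 10105, and the other fits that left out a library gave 65 to 214. Leaving out aPD-1+CD8 library 3 also gave the only calls by limma voom in any of the 6 fits that left out a library, 2 genes that were both lower. They were Cdh13, a cadherin anchored to the membrane without a cytoplasmic tail, and Gpr126, an adhesion receptor; both are named because of their values. Cdh13 measured 120 and 78.6 in aPD-1+CD8 libraries 1 and 2, 384 in library 3, and 286, 235 and 218 with IgG. The log2 difference without library 3 was -1.34 (adjusted p = 0.00937 by limma voom) and -0.73 with it. Gpr126 measured 159 and 115 in libraries 1 and 2, 552 in library 3, and 291, 364 and 244 with IgG. Its log2 difference without library 3 was -1.13 (adjusted p = 0.0324 by limma voom) and -0.50 with it.

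Small nucleolar RNAs had the highest median log2 ratio of aPD-1+CD8 over IgG, 0.50, among the 29 gene families with at least 5 members at a mean of 10 or more. The lowest was -0.19, for protocadherins. These are short RNAs processed from introns, most of which guide chemical modification of ribosomal RNA. The 93 listed members held 5 of the 57 genes with an unadjusted p under 0.05 (0.372% of all genes tested), all higher with aPD-1+CD8 (0.137% of all genes): Snord16a, Snord15b, Snord22, Snord15a and Snora78. The 3 with the smallest p are shown to give their length, 99, 145 and 126 bases, and the box D motif CTGA near the end in capitals. All 97 Snord genes of the GENCODE M21 annotation (100%) hold this motif somewhere, searched on the transcribed strand alone, so it does not set these apart.
Snord16a: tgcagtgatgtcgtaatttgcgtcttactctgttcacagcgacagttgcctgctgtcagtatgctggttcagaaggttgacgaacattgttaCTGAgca
Snord15b: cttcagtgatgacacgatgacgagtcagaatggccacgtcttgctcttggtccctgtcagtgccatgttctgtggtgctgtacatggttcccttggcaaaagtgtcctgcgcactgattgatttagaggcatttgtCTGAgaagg
Snord22: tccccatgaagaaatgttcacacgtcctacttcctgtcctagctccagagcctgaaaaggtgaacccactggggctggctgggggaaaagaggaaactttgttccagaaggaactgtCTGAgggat

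Snord15b measured 329, 354 and 269 with aPD-1+CD8 and 203, 222 and 242 with IgG, without overlap. Snord16a had 588, 387 and 394 against 393, 256 and 211, so library 2 of aPD-1+CD8 was just below the highest control. Snord22 was at 632, 455 and 269 against 283, 364 and 253, with library 3 inside the IgG range. Over the 22 small nucleolar RNAs with a mean of at least 10, the median difference from the IgG mean (log2 of the count plus 1) was 0.55 and 0.57 in aPD-1+CD8 libraries 1 and 2 and -0.05 in library 3. The IgG libraries had 0.083, -0.0067 and -0.11, and the aPD-1 libraries -0.18, -0.14 and 0.19. Among these groups the median thus stood out in 2 of the 3 aPD-1+CD8 libraries and not in the third. With aPD-1, Snord16a was at 171, 325 and 407, Snord15b at 191, 155 and 312, and Snord22 at 221, 230 and 530. With IFNg, Snord16a was at 428, 445 and 375, Snord15b at 241, 256 and 282, and Snord22 at 377, 435 and 372. High values of these members were thus not confined to aPD-1+CD8 libraries.

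The genes that carry these RNAs in their introns were mostly near IgG. For the 16 host genes with a mean of at least 10, the medians were 0.04, -0.11 and 0.04 in the aPD-1+CD8 libraries. Rps3, a ribosomal protein gene that hosts Snord15a and Snord15b, measured 13560, 11783 and 12636 with aPD-1+CD8 and 11535, 12284 and 13186 with IgG. Rpl4, the host of Snord16a, was at 7191, 6119 and 6928 against 6771, 6836 and 7306. Both hosts overlapped between groups. Snhg1, the host of Snord22, was at 99.9, 177 and 69.0 against 72.6, 97.7 and 83.6, above IgG in libraries 1 and 2 and below it in library 3, as a log2 ratio of group means of 0.44. Snhg12, another noncoding host, had a ratio of 0.25 and overlapped with IgG. Reads of an intronic RNA and of its unspliced host cannot be told apart here, and short genes differed in level by library: over the 1817 genes with the shortest exons (up to 2041 bases in all) the median difference was 0.07 and 0.08 in aPD-1+CD8 libraries 1 and 2 and -0.0016 in library 3, and it was -0.024, -0.045 and 0.080 in the IgG libraries. In IgG library 3 the median was 0.080 for short genes and -0.11 for small nucleolar RNAs. The short-gene group includes genes far longer than the small RNAs themselves. The libraries were made by exome capture, and how well these small RNAs were captured was not measured. The part of capture, of transcript length and of Rn45s content in the small RNA difference was not tested.

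The 19 genes described here, with the largest shifts under PD-1 blockade alone, 10 higher and 9 lower, were near IgG levels when CD8 antibody was added. They were Prg4, Osbp2, Socs3, Bdkrb1, Hcar2, Pde4b, Mmp2, Slpi, Cebpd and Il11 among those that rose with aPD-1, and Adcy5, Elmo1, Cdsn, Ifi44, Ankrd1, P2rx3, Arap2, Gatm and Cobll1 among those that fell. All 19 differed between aPD-1+CD8 and aPD-1 in the authors' deposited table (adjusted p of 8.53e-09 for P2rx3, the largest of them, by DESeq2), against 14.8% of all genes tested. In all 19 the 3 libraries of one group lay wholly to one side of the other. The 19 were picked as extreme in these same aPD-1 libraries, which by itself widens their gap from aPD-1. The size of that gap is therefore no unbiased estimate. The aPD-1+CD8 libraries were not used in the choice. Against IgG, 0 of the 19 passed, and 1 (Mmp2) had an unadjusted p under 0.05 in the authors' deposited table. For 14 of the 19 there were enough reads for an interval by limma voom. In 13 of these the interval of aPD-1+CD8 over IgG spanned 0, Mmp2 being the exception, and in all 14 it left out the shift that aPD-1 showed.

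Socs3, a feedback inhibitor of JAK-STAT signalling, measured 42.6, 51.3 and 53.1 with aPD-1+CD8, 31.4, 45.1 and 35.2 with IgG and 1123, 931 and 927 with aPD-1. The treated range began inside the control range, and the log2 difference from IgG was 0.40 (-0.14 to 0.95 by limma voom), so a rise of more than 0.95 lay outside the interval while aPD-1 was 4.74 above IgG. Pde4b, a phosphodiesterase that breaks down cyclic AMP, was at 147, 138 and 150 against 112, 135 and 120, and at 3441, 2733 and 2256 with aPD-1. Its 3 aPD-1+CD8 libraries were all slightly above IgG, by 0.25 (-0.11 to 0.61 by limma voom). Il11, a cytokine of the IL-6 family, had 19.8, 26.2 and 14.6 against 10.5, 21.7 and 25.5, and 494, 397 and 844 with aPD-1. The groups with CD8 antibody and IgG overlapped throughout. Prg4, which encodes the lubricant proteoglycan 4, measured 4.16, 10.3 and 1.33 against 3.49, 0.835 and 4.85, and 702, 360 and 479 with aPD-1. Hcar2, a receptor for hydroxycarboxylic acids, had 0 reads in each aPD-1+CD8 library, where a count of 0 allows up to 3 reads, and 109, 101 and 90.2 normalised reads with aPD-1.

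Genes that fell with aPD-1 were near IgG as well. Adcy5, an adenylyl cyclase, was at 40.6, 31.9 and 30.5 with aPD-1+CD8 and 50.3, 39.2 and 33.9 with IgG, and at 0, 3.17 and 0 with aPD-1. Ankrd1, a nuclear and sarcomeric ankyrin-repeat protein, was at 51.0, 71.8 and 77.0 against 47.5, 49.3 and 47.3, above IgG in all 3 libraries, with a log2 difference of 0.43 (-0.07 to 0.94 by limma voom). Cdsn, an adhesion protein of cornified epithelium, ran from 50.4 to 237 in the aPD-1+CD8 libraries and from 98.5 to 121 with IgG. It shows the spread between libraries 2 and 3, which were at 237 and 50.4.

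**Figure D3:**
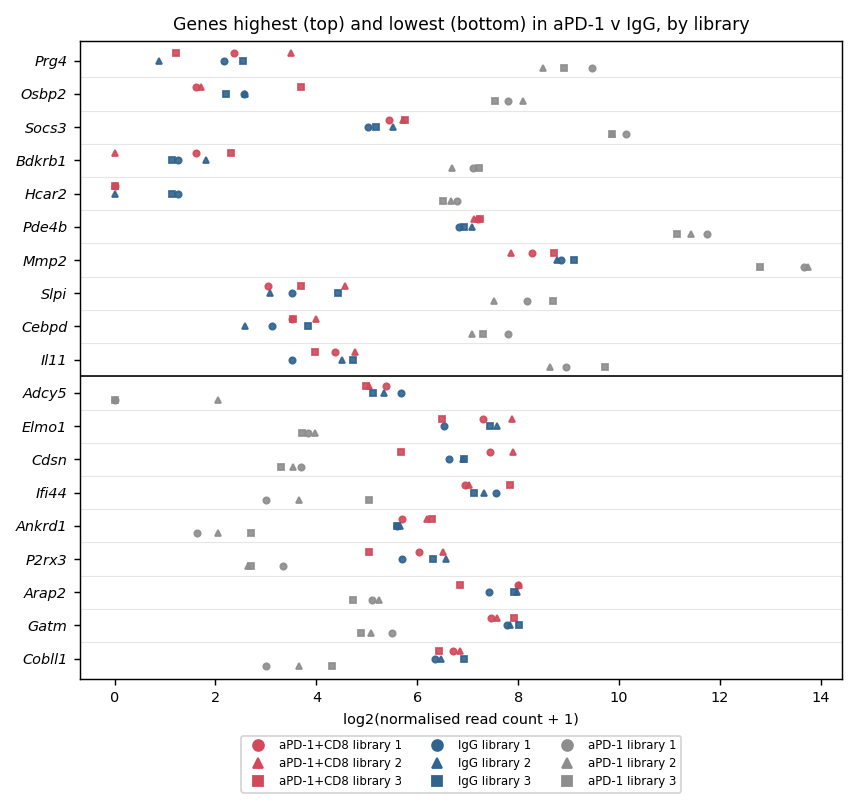
Each point is 1 library's log2(normalised read count + 1) for 10 genes with the largest positive (above the line) and 9 among those with the largest negative (below it) log2 fold change in aPD-1 v IgG. Red aPD-1+CD8 and blue IgG points overlap except for Pde4b, Mmp2 and Ankrd1, while the grey aPD-1 points stand apart from the red ones in all 19.

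The same side-by-side reading extends to all genes that passed in aPD-1 v IgG, with the caution that both comparisons use the same IgG libraries and that the genes were picked on one of them. Of 1022 genes that rose with aPD-1, 904 had a mean of at least 10 in each of the 3 groups. Their median log2 ratio to IgG was 0.82 with aPD-1 and -0.0017 with aPD-1+CD8, with quartiles of -0.10 and 0.09. Of 1207 that fell, 1117 had such means, with medians of -0.72 and -0.0039 and quartiles of -0.08 and 0.08 with aPD-1+CD8. In 876 of the 904 (96.9%) and 1069 of the 1117 (95.7%), the 95% interval of aPD-1+CD8 over IgG by limma voom left out the aPD-1 ratio. In these bulk cultures, fewer cells of a type and less RNA per cell cannot be told apart.

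Genes this study is known for were chosen by the study on these samples, so they are no independent evidence. The list held 4 genes, of which Birc2, with a mean of 87.3 over the 6 libraries, is not shown by library. All 4 rose with aPD-1 by the authors' deposited table, against 8.5% of all genes, and 0 passed in aPD-1+CD8 v IgG. Snai1, a transcription factor of epithelial-mesenchymal transition, measured 37.4, 72.9 and 43.8 with aPD-1+CD8, 48.9, 43.4 and 50.9 with IgG and 632, 488 and 516 with aPD-1. Ly6a, which encodes the surface antigen Sca-1, was at 6.24, 5.70 and 7.96 against 11.9, 6.68 and 13.3, and at 67.0, 45.4 and 59.4 with aPD-1. Both overlapped between aPD-1+CD8 and IgG. Birc3, an inhibitor of apoptosis acting below TNF receptors, was at 45.8, 60.4 and 43.8 against 37.0, 30.9 and 32.7, and at 119, 92.9 and 176 with aPD-1. All 3 aPD-1+CD8 libraries exceeded all 3 IgG libraries, by a log2 difference of 0.56 (0.02 to 1.10 by limma voom), though the unadjusted p in the authors' deposited table was 0.0927.

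No member of the 31 gene lists examined, 613 entries listed in the table, passed in aPD-1+CD8 v IgG, as no gene did. Across the 23 lists with at least 5 members at a mean of 10 or more, the median log2 ratio of aPD-1+CD8 over IgG lay between -0.16 and 0.16, against 0.0025 for all 9913 genes. With aPD-1 the medians of the same lists lay between -1.31 and 1.27. Of the 574 distinct list members tested, 5 (0.871%) had an unadjusted p under 0.05 in the authors' deposited table, against 0.372% of all genes tested: Mmp2, Egr2 and Krt19 lower, and Cebpb and Twist2 higher. Twist2, a transcription factor of mesenchymal cells, measured 303, 243 and 373 with aPD-1+CD8 and 241, 225 and 235 with IgG, without overlap.

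Type I interferon response genes, which encode antiviral proteins, fell in 29 of 34 and rose in 1 in the authors' deposited table for aPD-1 v IgG, where 10% of all genes fell and 8.5% rose. In aPD-1+CD8 v aPD-1 18 of the 34 were higher and 1 lower by the authors' deposited table, against 7.82% and 6.94% of all genes. Against IgG, 0 of 34 passed and 2 had all aPD-1+CD8 libraries below all IgG libraries, against 2.17% of all genes. Isg15, a ubiquitin-like modifier, measured 53.1, 46.7 and 51.8 with aPD-1+CD8, 54.5, 30.9 and 58.2 with IgG and 4.19, 7.39 and 19.8 with aPD-1. Ifit1, which binds foreign RNA, was at 32.2, 28.5 and 98.2 against 78.9, 67.6 and 61.8, so libraries 1 and 2 were below every control and library 3 above. The list's median difference from IgG was -0.38, -0.14 and 0.18 in the 3 aPD-1+CD8 libraries and 0.20, -0.10 and -0.10 in the IgG libraries.

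Interferon-gamma response and MHC class I genes, which respond to or serve recognition by T cells, were close to IgG. Of 32 interferon-gamma genes 0 passed, with a median log2 ratio of -0.06, and of 21 MHC class I pathway genes 0 passed, with a median of -0.0035. H2-K1, a class I heavy chain, measured 19783, 16019 and 15305 with aPD-1+CD8 and 17040, 15264 and 16799 with IgG. B2m, the class I light chain, was at 893, 1308 and 779 against 741, 1014 and 1028. Both overlapped between groups, and the intervals by limma voom were -0.24 to 0.34 for H2-K1 and -0.32 to 0.49 for B2m.

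Amino acid supply and ATF4 target genes, induced when amino acids run short, fell in 23 of 28 and rose in 2 in aPD-1 v IgG by the authors' deposited table, against 10% and 8.5% of all genes. With CD8 antibody 0 of 30 passed against IgG, and the median log2 ratio was 0.14. Asns, asparagine synthetase, measured 1503, 1661 and 1473 with aPD-1+CD8, 1489, 1391 and 1450 with IgG and 436, 631 and 650.1 with aPD-1. The aPD-1+CD8 and IgG values overlapped slightly, with a log2 difference of 0.10 (-0.16 to 0.36 by limma voom). Genes of DNA replication, of which 23 of 33 fell with aPD-1 in the authors' deposited table against 10% of all genes, had a median ratio of 0.10 with CD8 antibody. Cebpb, a leucine-zipper transcription factor, was at 1931, 1867 and 1703 against 1303, 1334 and 1777.

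The lists with more genes raised than lowered by aPD-1 also stood near IgG. Over all genes 8.5% rose and 10% fell with aPD-1, and the counts below are read against those shares. TNF and NF-kB response genes rose in 14 of 24 and fell in 3 with aPD-1 by the authors' deposited table, and their median log2 ratio with CD8 antibody was -0.015. Cholesterol synthesis genes rose in 12 of 22 with aPD-1 by the authors' deposited table and had a median of 0.024. Hypoxia and glycolysis genes rose in 12 of 25 with aPD-1 by the authors' deposited table, with a median of -0.038 after CD8 antibody. Vegfa, a growth factor for blood vessels, measured 3158, 3589 and 2902 with aPD-1+CD8, 3216, 3622 and 3457 with IgG and 14231, 12303 and 9332 with aPD-1. Egr2, an immediate early transcription factor, was at 27.0, 35.3 and 39.8 against 73.3, 52.6 and 50.9, below IgG in all 3 libraries, with a log2 difference of -0.82 (-1.40 to -0.24 by limma voom).

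The medians of a list hid opposite positions of aPD-1+CD8 libraries 2 and 3. Fibroblast and stroma markers stood at -0.60 in library 2 and 0.40 in library 3, relative to the IgG mean. Library 1 was at -0.30. The IgG libraries ran from -0.29 to 0.41, so library 3 lay inside their range, library 2 below it and library 1 just below it. Col1a1, the chain of fibrillar collagen, measured 465, 385 and 1321 in libraries 1, 2 and 3 and 1209, 658 and 647 with IgG. Pdgfra, a growth factor receptor of mesenchymal cells, was at 235, 175 and 625 against 580, 334 and 296. Library 3 was the highest of the 6 for both genes, and library 2 the lowest. Hypoxia and glycolysis genes were at -0.34 in library 2 and 0.44 in library 3, both outside the IgG range of -0.21 to 0.20. Library 1, at -0.22, was just below that range. In the opposite direction, p53 targets were at 0.50 in library 2 and -0.19 in library 3, and ATF4 targets at 0.37 and -0.18. The IgG libraries ran from -0.05 to 0.10 for p53 targets and from -0.08 to 0.11 for ATF4 targets. Library 1 was at 0.14 for p53 targets, above the IgG range, and at 0.10 for ATF4 targets, inside it. Gdf15, a stress-induced cytokine, measured 193 in library 2 and 41.1 in library 3, against 53.8, 69.3 and 122 with IgG.

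**Figure D4:**
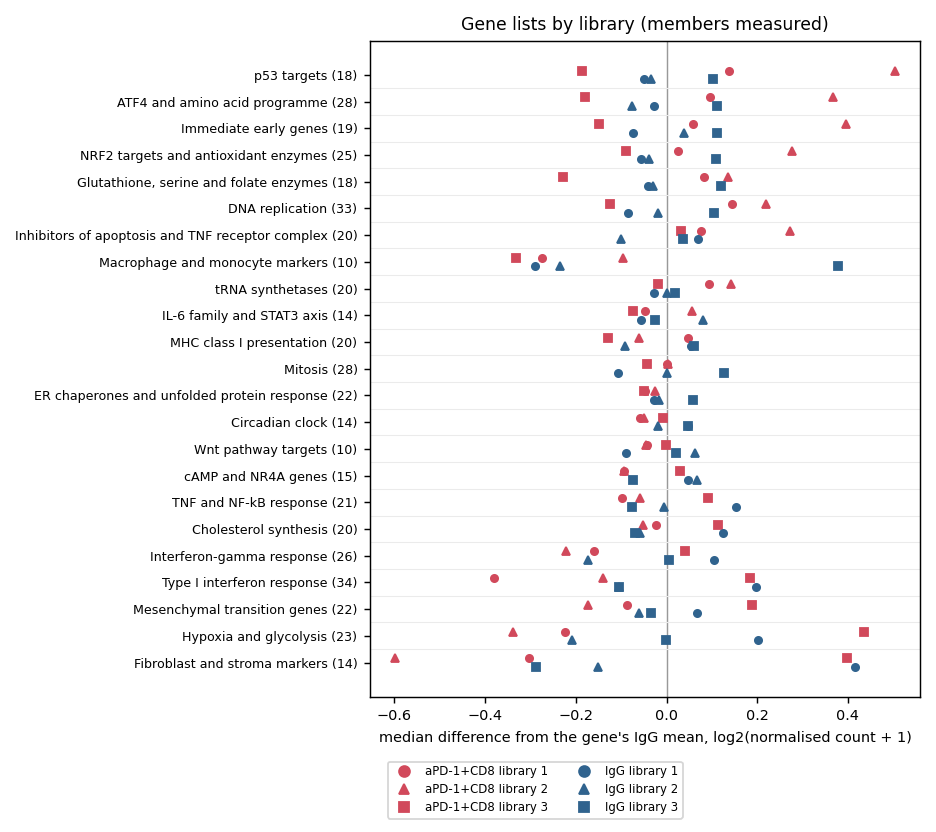
Each point is the median, over the members of a gene list with a mean count of at least 10 (number in brackets), of a library's difference from the IgG mean on the log2(normalised count + 1) scale. The red triangles and squares, aPD-1+CD8 libraries 2 and 3, lie on opposite ends for p53 targets (0.50 and -0.19) and for fibroblast and stroma markers (-0.60 and 0.40).

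Single genes differed by far more. Among genes with a mean of at least 50 the largest gap was in Slc6a12, a betaine and GABA transporter, which measured 4.56 in library 2 and 255 in library 3. Igfbp5, which binds insulin-like growth factors, was at 4.56 and 207, and Tnc, the matrix protein tenascin-C, at 45.6 and 397. The IgG libraries ran from 10.9 to 73.3 for Slc6a12 and from 4.85 to 58.5 for Igfbp5, so both also varied among controls. In the other direction Ppp1r15a, which restores translation after stress, was at 244 in library 2 and 57.1 in library 3. These genes were chosen for their gap, so the values only describe it. Over the 1815 genes with the longest exons the median difference from IgG was -0.036, -0.13 and 0.048 in aPD-1+CD8 libraries 1, 2 and 3. The IgG libraries were at 0.020, 0.044 and -0.064, so library 2 lay below them and library 3 close to the highest.

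The defining markers of T cells were near 0. Summed over Cd3e, Cd3d, Cd8b1, Cd4 and Lck the normalised count was 1.04 to 3.98 in the aPD-1+CD8 libraries and 2.51 to 4.85 in the IgG libraries. Cd3e, a chain of the T cell receptor complex, had 0 reads in all 6, and Cd8b1, which encodes the beta chain of CD8, was at 0 in each aPD-1+CD8 library and at 0, 1.67 and 0 with IgG. A difference in CD8 T cells was therefore not detectable from these transcripts at this depth. Of the 11 genes measured in the T and NK cell list, 7 had a mean under 1 and only 2 reached 10. The transcription factor Tcf7 was at 733, 522 and 597 against 533, 676 and 594. The transcription factor Eomes was at 87.4, 92.3 and 111 against 96.4, 104 and 99.4. Both overlapped between groups, and which cells these transcripts came from was not tested. Macrophage markers were present, with sums over 4 markers of 126 to 149 against 133 to 171. Lyz2, lysozyme, measured 49.9, 63.8 and 65.0 against 54.5, 62.6 and 73.9.

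Markers of epithelium, the lineage of a colon carcinoma, were nearly absent in both groups. The sum over Epcam, Krt8, Krt18 and Krt19 was 0 to 1.33 with aPD-1+CD8 and 2.42 to 18.4 with IgG. Krt19, an intermediate filament of simple epithelia, had 7.68, 12.5 and 0 with IgG and 0 in each aPD-1+CD8 library. Over 4 fibroblast markers the sum was 1014 to 2691 with aPD-1+CD8 and 1497 to 2420 with IgG, with Col1a2 at 1.04 to 9.12 and 8.38 to 12.5. Over 3 endothelial markers the sum was 15.95 to 35.83 with aPD-1+CD8 and 22.55 to 33.94 with IgG, and the ranges overlapped. Pecam1 alone was near 0, at 0 to 2.08 and 0 to 1.21. The part of other cell types in the differences above was not tested.

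The level of each gene over the 6 cultures is the authors' mean normalised count. In the authors' deposited table for aPD-1+CD8 v IgG 2707 of 15306 genes were under 1, 2535 from 1 to under 10, 4185 from 10 to under 100, 4265 from 100 to under 1000 and 1614 at 1000 or more. Rn45s held 28.6% of the total. To compare genes the means were divided by exon length from the GENCODE M21 annotation, available for 15177 genes (99.2%), and the median was 15.7 per kilobase. The libraries were made by exome capture, so the level of a gene also depends on how well its probes captured it. Of the 36 families of related genes, 12 had a median of at least 10 per kilobase.

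Housekeeping machinery stood highest. By the authors' deposited table, cytosolic ribosomal proteins, which build the ribosome, had a median of 1356 per kilobase over 84 genes, and 52 of them had a mean count of at least 1000. Rpl19, Rpl32 and Rps4x led the family at 28736, 17256 and 15556 per kilobase in the authors' deposited table. The family took 3.43% to 3.6% of reads outside Rn45s in the aPD-1+CD8 libraries and 3.27% to 3.68% in the IgG libraries, and the ranges overlapped. Subunits of the proteasome, the main protease of the cytosol, had a median of 652 per kilobase over 37 genes by the authors' deposited table, with Psmc6 at 3547. Translation initiation factors had a median of 241 over 52 genes by the authors' deposited table, led by Eif5a at 12120 and Eif4g2 at 10914 per kilobase. Chaperonins and heat shock proteins, which fold proteins, had a median of 65.1 and were led by Hspa8 at 9115 per kilobase in the authors' deposited table.

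Replication-type histones, which package new DNA and whose messages end without a poly(A) tail, had a median of 831 per kilobase over 57 genes by the authors' deposited table, with Hist2h2bb at 19500.4. They took 0.931% to 1.14% of reads in the aPD-1+CD8 libraries and 0.817% to 1.16% in the IgG libraries. Near-identical copies make single histone genes uncertain. Among genes of the cytoskeleton, Actb stood at 46763 and Tubb5 at 15510.4 per kilobase in the authors' deposited table, while the quartiles of the 21 actins and tubulins were 0.60 and 1073.

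Families of mitochondria had medians under 100 per kilobase. Complex I subunits of the respiratory chain had a median of 46.0 per kilobase over 36 genes, and those of complexes II to V a median of 89.3 over 43, by the authors' deposited table. Atp5g3, a ring subunit of ATP synthase, led at 4607 per kilobase in the authors' deposited table. Mitochondrial ribosomal proteins had a median of 24.6 over 77 genes in the authors' deposited table, led by Mrpl43 at 404 per kilobase.

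**Figure D5:**
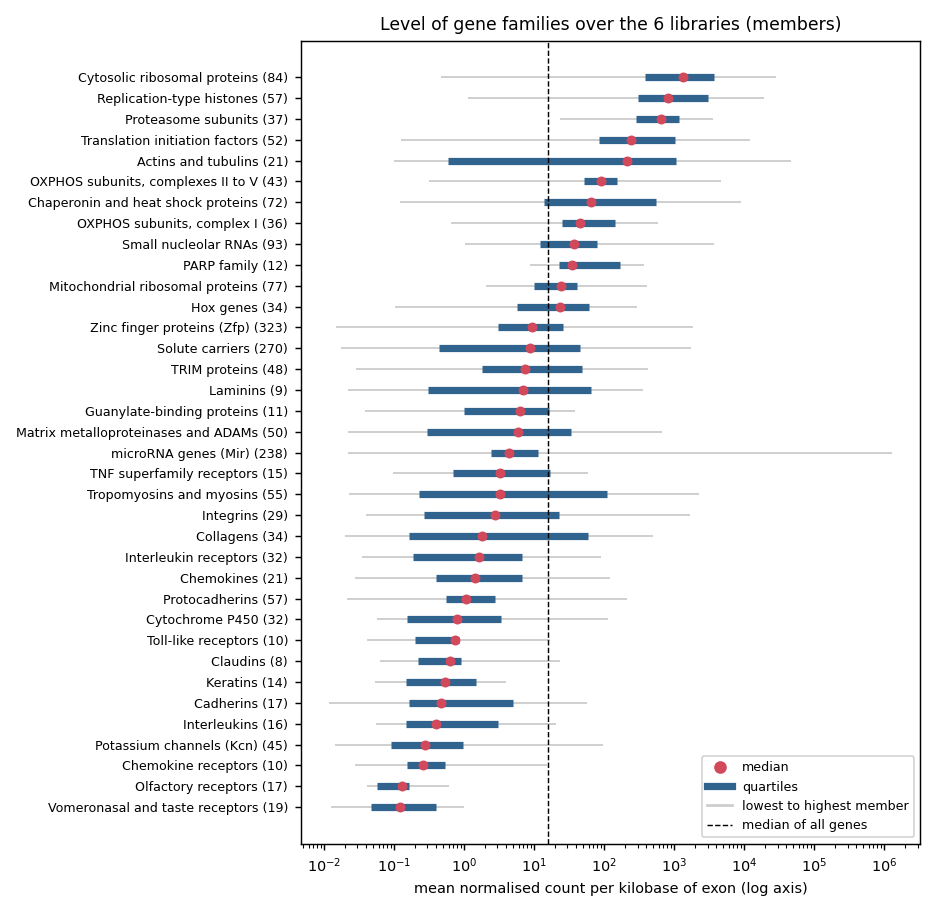
Each line is a gene family (number of members with a length in brackets), with its median (red), quartiles (thick blue) and lowest to highest member (grey) as mean normalised count per kilobase of exon on a log axis; the dashed line is the median of all genes, 15.7. Cytosolic ribosomal proteins (1356) and replication-type histones (831) stand highest, and olfactory and vomeronasal receptors are near 0.1.

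Matrix and adhesion families were split between a few high members and many near 0. The 34 collagens had a median of 1.78 per kilobase by the authors' deposited table, yet Col6a3, Col6a2 and Col6a1, the chains of type VI microfibrils, stood at 500.1, 475 and 446. Integrins had a median of 2.80 and were led by Itgb1, the common beta chain, at 1708 per kilobase in the authors' deposited table. The laminins Lamb1 and Lamc1, chains of basement membrane laminin, were at 363 and 250.0 against a median of 6.98 for 9 genes in the authors' deposited table. Keratins, filaments of epithelia, had a median of 0.53 and no member of 14 at a mean of 10. Claudins, the tight junction proteins, had 2 of 9 members at 10 or more, with Cldn12 at 23.7 per kilobase in the authors' deposited table.

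Signalling families of immunity were low. Chemokines had 7 of 21 members at a mean of at least 10 by the authors' deposited table, led by Ccl2 at 121 and Cxcl10 at 91.3 per kilobase, which attract monocytes and activated T cells. Interleukins had 4 of 16, with Il33 and Il34 at 20.5 and 19.2 per kilobase in the authors' deposited table. Interleukin receptors had 15 of 32, with Il13ra1 at 91.4 and Il6st, the shared signalling chain of the IL-6 family, at 67.6 per kilobase in the authors' deposited table. Toll-like receptors had 2 of 10 at that level, Tlr3 and Tlr4, at 16.9 and 3.56 per kilobase in the authors' deposited table. Chemokine receptors had 1 of 10, Ackr3 at 15.2 per kilobase in the authors' deposited table.

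Regulators and transporters lay near the middle. Hox genes, which carry positional identity, had 26 of 34 members at a mean of 10 or more by the authors' deposited table, led by Hoxc6 and Hoxd10 at 294 and 273 per kilobase. The 323 Zfp zinc finger genes had a median of 9.46 and the 270 solute carriers 8.63 per kilobase in the authors' deposited table. Among solute carriers Slc25a5, the mitochondrial exchanger of ADP and ATP, and Slc7a5, which imports large neutral amino acids, stood at 1760.0 and 1678 per kilobase in the authors' deposited table. Olfactory receptors and vomeronasal and taste receptors, genes of the nose and tongue, had no member of 17 and 19 at a mean of 10, with medians of 0.13 and 0.12 per kilobase in the authors' deposited table.

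The 3 families with the highest medians were compared between the groups. The median per kilobase of cytosolic ribosomal proteins was 1418 with aPD-1+CD8 and 1371 with IgG, that of replication-type histones 926 and 773, and that of proteasome subunits 665 and 672. Small nucleolar RNAs had 43.0 and 31.2 and took 0.0232% to 0.0392% of reads outside Rn45s with aPD-1+CD8 and 0.0213% to 0.0255% with IgG. Collagens took 0.157% to 0.274% of reads with aPD-1+CD8, lowest in library 2 and highest in library 3, and 0.171% to 0.274% with IgG.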

How the data were processed

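RNA from 6 of 12 cultures was compared, 3 with aPD-1+CD8 and 3 with IgG. Per the submitters' processing notes the authors used DESeq2 on the mm9 build; the sources used here do not name the aligner, read counter, annotation or versions. For each gene, per the file headers, the authors deposited the mean normalised count (a signal), the log2 fold change and its error, the Wald score, and the p-value before and after adjustment. No column holds a single sample (0 such columns). The mean counts are printed to 15 digits, so the whole reads of each library were solved from the 5 tables by lattice reduction (sympy 1.14.0). All 16399 genes were solved, and every printed mean was matched within 1 unit of its last digit. On simulated data for aPD-1+CD8 v IgG, 15910 of 15911 genes came back exactly. These counts replaced the planned sums and differences of means, because the tables were scaled separately. Normalised counts were reads divided by median-of-ratios size factors over 12 libraries. limma voom, added after the data were seen (3.58.1, R 4.3.3) was fitted to genes with a mean of at least 10 reads, with Benjamini-Hochberg adjustment. On simulated counts for aPD-1+CD8 v IgG with 10439 genes it called 92 of 100 genes changed 2-fold and 100 of 100 changed 4-fold, with 9 false calls. The changed genes were drawn only from those with a mean of at least 50. The simulated noise was independent by gene, without a gap like that between aPD-1+CD8 libraries 2 and 3. These rates are therefore not the power in the real cultures. Logs add a pseudocount of 1.

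The members and gene lists were chosen with earlier results of these data known. The text names the 5 smallest p per direction, the 10 largest log2 fold changes per direction among adjusted p under 0.05 in aPD-1 v IgG, up to 6 passing members a list and up to 3 highest members a family per kilobase; others are illustrations chosen after their values were seen. A gene that the rule selects among those lower in aPD-1 v IgG is not reported here. Exon lengths and small RNA sequences came from GENCODE M21 (GRCm38), used for names, lengths and sequences alone; 15622 genes matched by symbol and 625 by an older symbol.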

Additional observations from a re-analysis of the deposited data

How the results depend on the processing

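The count of genes passing in aPD-1+CD8 v IgG was 0 at an adjusted p under 0.01, with a log2 fold change of at least 1, without and with a filter at a mean count of 10, after dividing the Wald score by its robust SD of 0.715 (smallest adjusted p 0.0877), and by limma voom on 6 or on 12 libraries. Leaving out 1 library gave 0 to 2 genes, the 2 without aPD-1+CD8 library 3. In aPD-1 v IgG the 2229 genes became 707 with a log2 fold change of at least 1 and 1074 after dividing the Wald score. In aPD-1+CD8 v aPD-1 the 1706 genes became 1099 at an adjusted p under 0.01, 656 with the fold change and 878 after dividing the Wald score. Fewer genes meet a stricter threshold by construction. Members of the gene lists passing against IgG remained 0 with a mean count of at least 10. Of 207 alternative list medians, 175 moved by less than the SD of the IgG libraries and 32 by more, all within -0.43 and 0.33. Both ends came without aPD-1+CD8 library 3, with -0.43 for fibroblast and stroma markers and 0.33 for p53 targets. Families with a median of at least 10 per kilobase numbered 12, and 21 counting only members with a mean of at least 1. The planned sums of deposited means gave 1864 genes with an aPD-1+CD8 level below 0, and 205 after rescaling each table, against 0 with recovered reads. No paired analysis was possible because the labels number no replicates and the recovered libraries cannot be tied to individual samples.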
